A study of Mus musculus with 19 samples.

Results

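A set of 8 epidermal kallikreins (Klk5, Klk6, Klk7, Klk8, Klk10, Klk11, Klk13 and Klk14) and Spink5, the gene of their inhibitor, were examined as mRNA in mouse skin. These 9 genes were taken by symbol from a table of 50686 genes and 19 mice, and all 9 passed the filter for testing. Female BALB/c recipients aged 8 to 12 weeks were irradiated and given T cell-depleted bone marrow and splenocytes. Male B10.D2 donors, mismatched at minor histocompatibility loci, gave a chronic graft-versus-host disease with hardened skin (Scl-cGVHD), and male BALB/c donors gave the syngeneic controls. From day 7 to day 35 the mice received either a neutralizing antibody to mouse CX3CL1, the chemokine fractalkine (anti-CX3CL1 mAb, clone 5H8-4), or control IgG against DNP, and skin was taken on day 42. Of the 8 syngeneic mice, 3 had IgG and 5 had mAb at a dose that the labels do not give. Of the 11 Scl-cGVHD mice, 3 had IgG, 3 had 0.5 mg mAb and 5 had 1 mg mAb. All groups thus share the irradiation, the transplant and an antibody injection, and no untransplanted skin was compared.

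Kallikreins of the epidermis are secreted serine proteases that are made in the granular layer and cut the corneodesmosomes that hold cornified cells together, so that the outermost cells are shed. They are made as inactive precursors and activate each other, and Spink5 encodes LEKTI, a many-domain inhibitor secreted into the same space. Loss of SPINK5 in humans causes Netherton syndrome, in which the barrier fails because the kallikreins are unchecked, and the same proteases can also cut receptors and antimicrobial peptides.

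The 8 kallikreins lie in 1 block of chromosome 7 that runs from 43690418 to 43851181 on GRCm38 (161 kb), all on the plus strand. Read along that strand the block holds 10 genes in the order Klk14, Klk13, Klk12, Klk11, Klk10, Klk9, Klk8, Klk7, Klk6 and Klk5, of which Klk9 and Klk12 are not among the 9 genes. The stretches just upstream of Klk8 (ENSMUSG00000064023), Klk7 (ENSMUSG00000030713) and Klk6 (ENSMUSG00000050063) are shown because these neighbours were all called higher in diseased skin. Each runs 5′ to 3′ on the plus strand of GRCm38, from the RefSeq promoter set, and ends 1 base before the start of the gene in the expression table. Capitals mark the GC box GGGCGG, on either strand, and the letters TTAAAA.
Klk8 (chr7:43797447-43797576): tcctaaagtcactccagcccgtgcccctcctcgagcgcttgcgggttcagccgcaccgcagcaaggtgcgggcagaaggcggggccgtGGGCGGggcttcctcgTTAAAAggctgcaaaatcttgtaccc
Klk7 (chr7:43811164-43811293): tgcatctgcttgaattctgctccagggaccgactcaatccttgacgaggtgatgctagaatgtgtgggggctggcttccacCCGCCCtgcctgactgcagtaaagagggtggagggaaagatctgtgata
Klk6 (chr7:43824369-43824498): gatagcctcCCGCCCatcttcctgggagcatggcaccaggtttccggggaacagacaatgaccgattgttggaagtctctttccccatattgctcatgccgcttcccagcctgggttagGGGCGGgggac
The GC box began at -42 from the RefSeq start of Klk8, at -49 for Klk7 (on the minus strand), and at -56 and -166 (the latter on the minus strand) for the first start of Klk6. It was present in windows of 3 of the 8 kallikrein genes, which are the 3 shown, and in 35.7% of all 32851 mouse promoter windows of 300 bases. Klk13, also called higher, had no GC box in its window, and Klk9, called higher as well, was not searched. TTAAAA was found for 4 of the 8 (Klk6, Klk8, Klk10 and Klk11) and in 19.2% of all windows. The letters TATAAA and the AP-1 motif TGACTCA, searched on both strands, were found for 0 of 8 and in 13.6% and 5.2% of all windows. These are matches of letters in a window and were not tested against expression.

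The table holds TPM, which keeps no depth, so the depth of each library is unknown. TPM is corrected for gene length, so levels of different genes can be set side by side. The tissue was labelled skin. All 9 keratinocyte genes of the marker list (Krt5, Krt14 and others) were above 0 in each mouse, but so were all 8 skeletal muscle genes. Presence above 0 thus does not by itself identify the tissue. A few libraries stood apart and touch the results below. Mouse ID_1540 (0.5 mg) had 881 TPM in 4 wound keratins, against 4823 and 13946 TPM in the other mice of its group, and 7308 TPM in 6 fibroblast genes, against 317 and 683 TPM. Syngeneic mAb mice ID_1533 and ID_1534 had 22968 and 13958 TPM in 14 hair follicle keratins, while the lowest mouse of their group had 4.09 TPM. Scl-cGVHD IgG mouse ID_1537 had 38348 TPM in 8 leukocyte genes, largely S100a8 and S100a9, and 5169 TPM in 11 granular-layer genes, the lowest of all 19 mice in that list. The granular-layer list also holds Krt1 and Krt10, which are made below that layer too, so its sum is not a level of that layer alone. In whole skin, fewer cells of a type and less RNA per cell cannot be told apart.

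In syngeneic IgG skin the family was led by Klk7 and Klk5, the chymotrypsin-like and trypsin-like enzymes best known for shedding. Klk7 stood at 176 ± 35.8 TPM (SD, n = 3) and Klk5 at 139.8 ± 14.96, with ranges that overlap slightly (149 to 217 and 123 to 153 TPM). Klk8 (67.1 ± 10.64) and Klk10 (62.4 ± 20.9) followed and overlapped each other, then Klk11 (32.0 ± 1.23) and Klk6 (25.0 ± 16.4), which also overlapped. Klk13 (2.63 ± 2.53) was low and Klk14 (0.793 ± 0.294), a trypsin-like shedding enzyme, was barely present. Spink5 (ENSMUSG00000055561), at 152 ± 15.5 TPM, stood as high as the leading proteases.

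**Figure D1:**
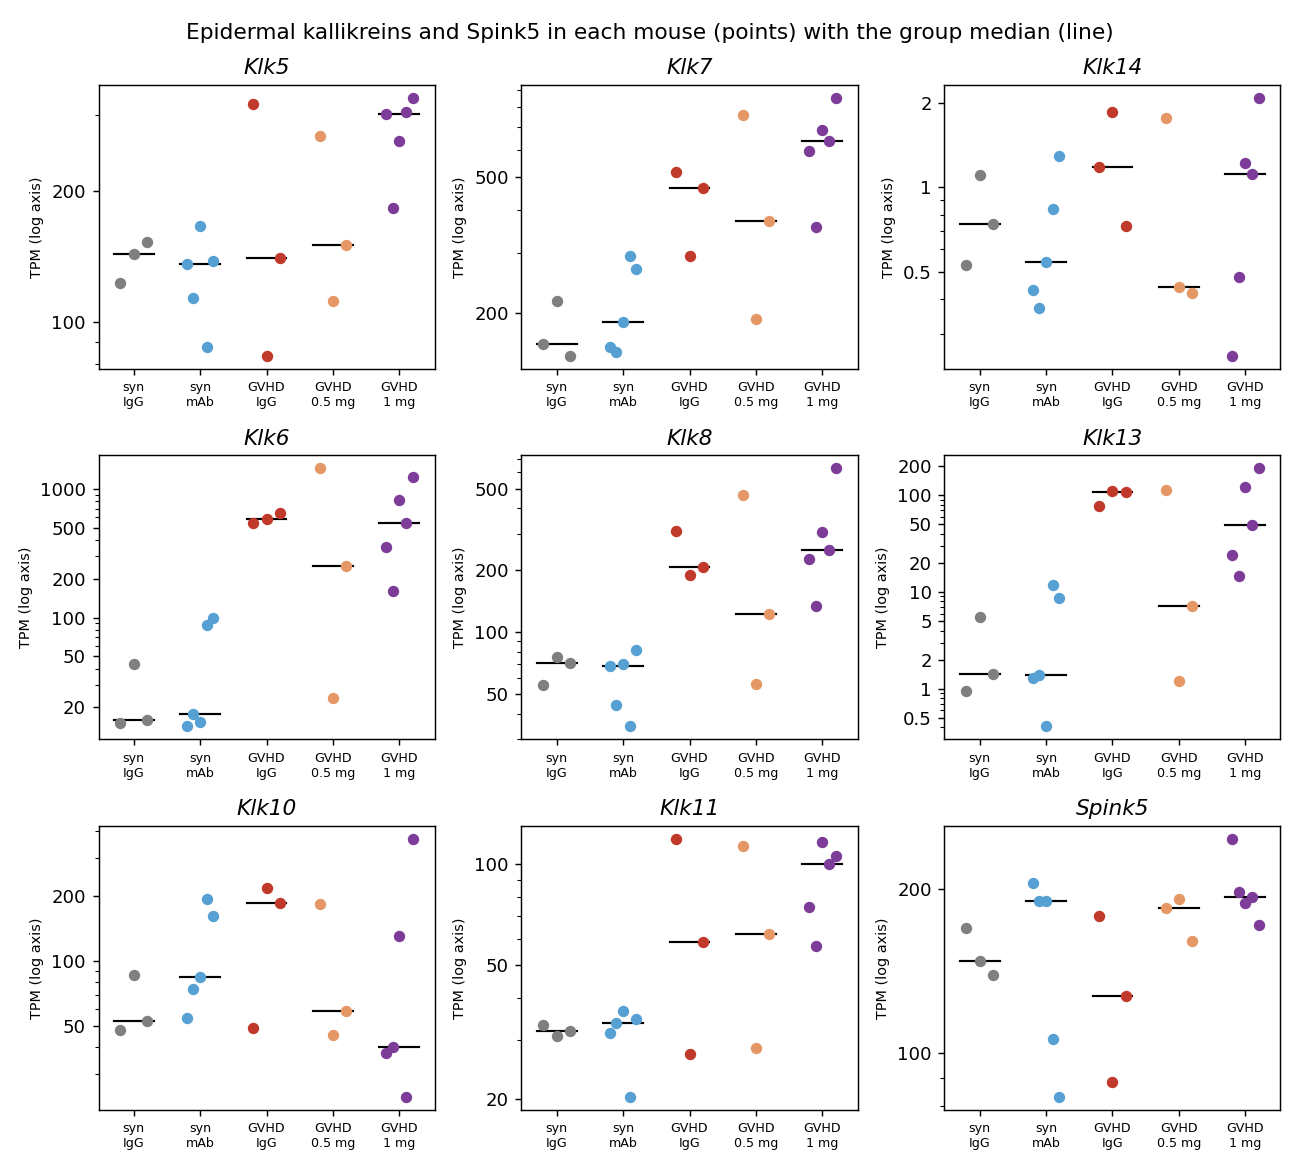
TPM of Klk5, Klk7, Klk14, Klk6, Klk8, Klk13, Klk10, Klk11 and Spink5 on log axes for each of the 19 mice (points) in the 5 groups, with the group median as a line. Klk6 and Klk13 separate Scl-cGVHD IgG mice (547 to 655 and 76.6 to 112 TPM) from syngeneic IgG mice (15.2 to 43.9 and 0.94 to 5.54 TPM), while Spink5 ranges overlap.

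The disease itself was examined by comparing Scl-cGVHD IgG with syngeneic IgG skin. Klk6 and Klk13 rose by more than an order of magnitude and Klk7 and Klk8 more modestly, whereas Klk5, Klk10, Klk11, Klk14 and the inhibitor Spink5 did not pass the test. By limma on log2(TPM + 1), with Benjamini-Hochberg adjustment over 16350 genes and a threshold of 0.05, 4 of the 9 genes were higher and 0 lower, where 6.84% of all tested genes were called higher and 17.9% lower. Those shares depend on the scaling, with 1805 genes higher and 1707 lower under median-ratio factors and 1829 and 1655 under trimmed-mean factors, while the same count of 4 of the 9 was called. For these 4 genes the lowest diseased mouse stood above the highest control, which held for 10.4% of all tested genes. The median of the 9 log2 differences was 1.05 and that of all tested genes -0.33.

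Klk6, a trypsin-like protease known from brain and skin, had 15.2, 43.9 and 15.8 TPM in syngeneic IgG mice and 547, 584 and 655 TPM in Scl-cGVHD IgG mice. The mice of each group lay far from those of the other. The difference on the log2(TPM + 1) scale was 4.69 (SE 1.14, limma adjusted p = 0.00974). Klk6 moved from the sixth place to the first among the 8 kallikreins, and the ratio of mean TPM was 23.8. Klk13, a trypsin-like protease of stratified epithelia, had 0.94, 5.54 and 1.41 TPM in syngeneic IgG mice and 76.6, 112 and 108 TPM in Scl-cGVHD IgG mice. This low gene became a moderately abundant one, with a difference of 4.98 (SE 1.22, limma adjusted p = 0.0100), a scale that understates changes from low levels (the ratio of mean TPM was 37.6). With each of the 6 mice left out in turn, Klk6 and Klk13 passed the test each time, at adjusted p values up to 0.0399 and 0.0427.

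Klk8, also called neuropsin, which is tied to shedding in mouse skin, had 55.2, 75.7 and 70.5 TPM in syngeneic IgG mice and 309.96, 190.1 and 207 TPM in Scl-cGVHD IgG mice. The difference was 1.78 (SE 0.597, limma adjusted p = 0.0398). Klk7, which cuts corneodesmosin, had 162, 217 and 149 TPM in syngeneic IgG mice and 518, 294 and 463 TPM in Scl-cGVHD IgG mice. The groups did not overlap for either gene, but the gap between the nearest mice was smaller than for Klk6. The difference for Klk7 was 1.24 (SE 0.407, limma adjusted p = 0.0351). Both calls were close to the threshold. Klk8 missed it with any 1 of the 6 mice left out (adjusted p from 0.0712 to 0.113), and Klk7 missed it without any of ID_1527, ID_1528, ID_1529, ID_1535 or ID_1538 (0.0522 to 0.1002), but not without ID_1537 (0.0363).

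Klk5, which starts the protease cascade by activating itself and others, had 123, 144 and 153 TPM in syngeneic IgG mice and 318, 83.7 and 140 TPM in Scl-cGVHD IgG mice. The diseased mice thus reached both above and below the controls, and the difference was 0.16 (95% interval -0.66 to 0.97, limma adjusted p = 0.776). Klk11, another trypsin-like protease, had 33.3, 30.9 and 31.8 TPM against 119, 27.2 and 58.5 TPM, with a difference of 0.83 (-0.14 to 1.81, limma adjusted p = 0.187). Without ID_1537, the mouse low in granular-layer genes, Klk11 passed the test (difference 1.36, limma adjusted p = 0.04996), where 4.93% of all genes were called higher. Klk10 had 47.9, 86.4 and 52.9 TPM against 49.3, 217 and 185 TPM. Klk10 was thus low in ID_1535, the mouse with the most Klk5 and Klk11 of its group, and high in the other mice (difference 1.05, limma adjusted p = 0.370). Klk14 stayed between 0.53 and 1.86 TPM in these 6 mice.

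Spink5 had 169, 147.5 and 139 TPM in syngeneic IgG mice and 178, 88.6 and 127 TPM in Scl-cGVHD IgG mice. The ranges overlapped, and the difference was -0.26 (95% interval -0.89 to 0.37, limma adjusted p = 0.519). Its sign depends on the scaling: all tested genes together had a median of -0.33 in this comparison, and median-ratio and trimmed-mean factors, which move that median to -0.01 and 0, put Spink5 at 0.12 and 0.13. Under the scalings tried, Klk6, Klk7, Klk8 and Klk13 kept both direction and call.

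**Figure D2:**
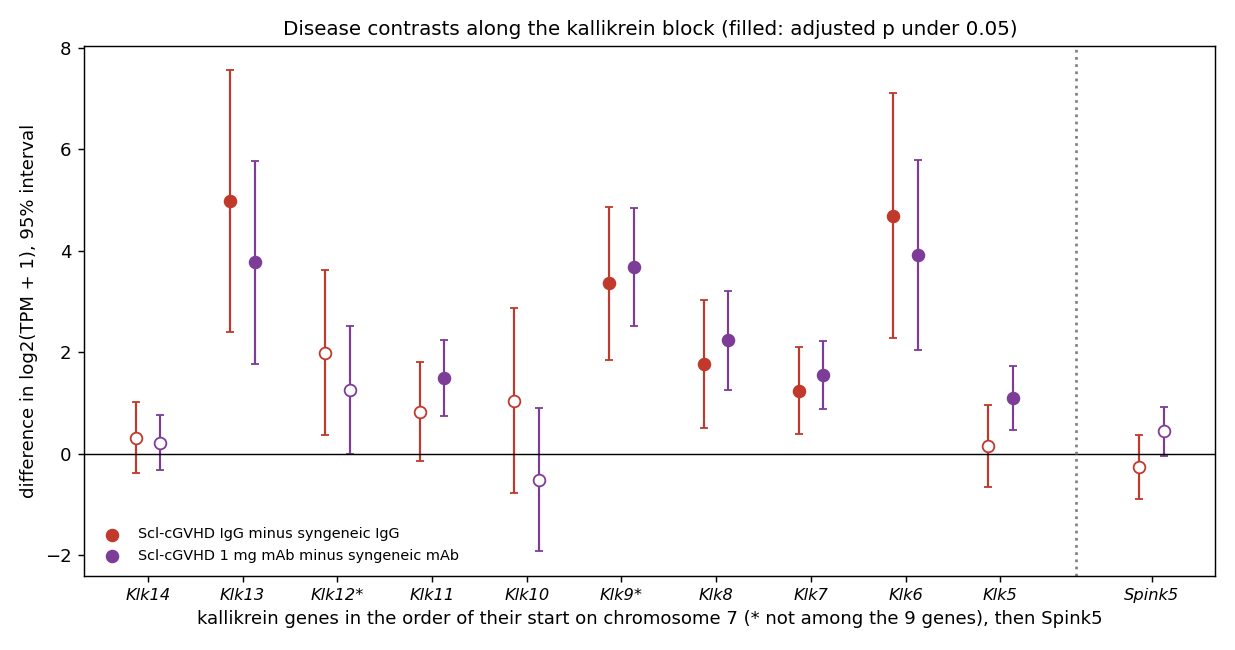
Difference in log2(TPM + 1) with its 95% interval for the 10 genes of the chromosome 7 block in genome order and for Spink5, in Scl-cGVHD IgG minus syngeneic IgG mice (red) and in Scl-cGVHD 1 mg mAb minus syngeneic mAb mice (purple); filled points had an adjusted p under 0.05. In the IgG comparison Klk9, Klk8, Klk7 and Klk6 form a run of called neighbours with Klk13 called apart, and in the mAb comparison Klk11 and Klk5 are called too, while Klk10 is called in neither (1.05 and -0.52).

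Along the block, the genes called in the IgG comparison did not form 1 stretch. Klk9, which lies between Klk10 and Klk8 and is not among the 9 genes, had 14.2, 17.0 and 18.1 TPM in syngeneic IgG mice and 203, 153 and 177 TPM in Scl-cGVHD IgG mice. It rose by 3.36 on the log2 scale (SE 0.709, limma adjusted p = 0.00460), so that Klk9, Klk8, Klk7 and Klk6 were called side by side. Klk5 at one end of this run and Klk10 and Klk11 at the other were not called, and Klk13, further upstream, was. Klk12, between Klk13 and Klk11, had 3.81 to 11.75 TPM in Scl-cGVHD IgG and 0.63 to 0.93 TPM in syngeneic IgG mice without passing the test (limma adjusted p = 0.0659). Downstream of Klk5, Klk4 and Klk15 stayed at or under 0.81 TPM, and the 14 genes Klk1 and Klk1b, near-identical copies whose reads cannot be split with certainty, at or under 0.83 TPM in any mouse.

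The disease contrast was asked a second time in other mice, by comparing Scl-cGVHD mice given 1 mg mAb with syngeneic mice given mAb, at a dose the labels do not state for the latter. Here 6 of the 9 genes were higher and 0 lower (limma, adjusted p under 0.05), where 7.99% of all tested genes were called higher and 28.3% lower. Under median-ratio factors 7 of the 9 were higher, with 2407 genes higher (14.7%) and 2364 lower, and under trimmed-mean factors 7, with 2509 (15.3%) and 2278. Klk6, Klk13, Klk8 and Klk7 rose again, and Klk11 and Klk5 joined them. All 6 lay higher in each Scl-cGVHD mouse than in any syngeneic mouse, as did 5.96% of all tested genes. The median difference of the 9 genes was 1.49, and that of all tested genes -0.32.

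Klk6 had 14.2, 17.7, 15.5, 87.9 and 98.6 TPM in syngeneic mAb mice and 356, 161, 816, 545 and 1247 TPM in 1 mg mice. The difference was 3.91 (SE 0.884, limma adjusted p = 0.00361). The 2 highest controls were ID_1533 and ID_1534, the mice rich in hair keratins. Klk13 had 1.29, 1.38, 0.41, 11.8 and 8.75 TPM against 23.9, 14.8, 120.5, 49.8 and 189 TPM, again with the same 2 controls on top (difference 3.77, SE 0.945, limma adjusted p = 0.00662). Klk8 rose by 2.23 (SE 0.462, adjusted p = 0.00202) and Klk7 by 1.55 (SE 0.315, adjusted p = 0.00169), both from limma.

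Klk5 had 135.8, 114, 167, 87.7 and 138 TPM in syngeneic mAb mice and 301, 183, 261, 305 and 328 TPM in 1 mg mice, a difference of 1.10 (SE 0.299, limma adjusted p = 0.00967). Klk11 had 31.4, 33.5, 36.6, 20.3 and 34.6 TPM against 74.8, 56.9, 117, 99.9 and 106 TPM (difference 1.49, SE 0.358, limma adjusted p = 0.00481). In these groups no 1 mg mouse fell to control levels for either gene. In the Scl-cGVHD IgG group ID_1537 did for both genes and ID_1538 did for Klk5 (140 TPM). Klk10 had 54.7, 74.2, 84.4, 193 and 161 TPM against 37.7, 40.1, 130, 23.6 and 366 TPM. Klk10 was thus the only kallikrein of the block with a difference below 0 here (-0.52, 95% interval -1.92 to 0.89, limma adjusted p = 0.552), and its 1 mg mice spanned both extremes. Spink5 had 205, 189, 189.8, 106 and 83.3 TPM against 247, 197.5, 188, 193 and 171 TPM, with a difference of 0.44 (-0.05 to 0.93, limma adjusted p = 0.137). Spink5 was called higher with median-ratio and trimmed-mean factors (0.82 and 0.84, adjusted p = 0.0189 and 0.0182).

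The summed level of 9 pan-epidermal genes moved with these calls. This sum was 7145 to 7910 TPM in syngeneic IgG, 10305 to 17073 in Scl-cGVHD IgG, 6705 to 8749 in syngeneic mAb and 12955 to 26095 in 1 mg mice. In the IgG comparison, limma called 2 of the 9 pan-epidermal genes higher and 0 lower, where 6.84% of all tested genes were higher. Their differences were above 0 for 5 and below 0 for 4, with a median of 0.12, while Krt14 went from a mean of 1844 to 7351 TPM. Against syngeneic mAb, 6 of them were called higher at 1 mg, with a median of 0.65, where 7.99% of all tested genes were higher. With the mean log2 level of the pan-epidermal genes as a covariate, 0 of the 9 kallikrein and Spink5 genes were called in the IgG comparison, while limma called 6.98% of all tested genes higher. Klk6 then stood at 3.65 (adjusted p = 0.0615), Klk13 at 4.05 (0.0585), Klk8 at 1.37 (0.179) and Klk7 at 0.66 (0.255). In the comparison of 1 mg with syngeneic mAb the count also fell from 6 to 0, with Klk6 at 1.96, Klk13 at 2.04 and Klk5 at 0.15, where 3.55% of all genes were called higher. The covariate itself differs between the groups, so that its part and that of the disease cannot be told apart.

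At the lower dose the contrast had 0 of the 9 genes called against syngeneic mAb mice. There limma called 2.91% of all genes higher and 13.1% lower. An unadjusted p under 0.05 was found for 4 of the 9 (Klk6, Klk7, Klk8 and Klk11) and for 5662 of 16350 genes. The 3 mice given 0.5 mg were unlike each other. Klk6 was 1445, 23.8 and 252 TPM in ID_1539, ID_1540 and ID_1541, Klk13 was 113, 1.2 and 7.22 TPM, and Klk8 was 468, 55.9 and 122 TPM. In ID_1540 each of the 8 kallikreins lay within or below the range of syngeneic mice, and this was the only Scl-cGVHD mouse in which none exceeded all syngeneic mice. Without ID_1540, 5 genes were called higher (Klk6, Klk7, Klk8, Klk11 and Klk13, log2 differences 4.18, 1.37, 2.05, 1.42 and 2.95), where 5.69% of all genes were. Without ID_1533 and ID_1534, 1 gene was called, Klk6 (3.64, adjusted p = 0.0401), where 2.45% of all genes were called higher.

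The effect of the antibody was examined within the disease. Neither dose gave a called change in any of the 9 genes against Scl-cGVHD IgG mice, which serve as the control for both doses. At 1 mg limma called 0 of the 9 genes and 0% of all tested genes, with 2 of the 9 (Klk5 and Spink5) and 1674 of 16350 genes at an unadjusted p under 0.05. At 0.5 mg it called 0 of the 9 and 0.0122% of all genes higher and 0.0428% lower, with 1 of the 9 (Klk13) and 2367 genes at an unadjusted p under 0.05. No other tool was run.

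**Figure D3:**
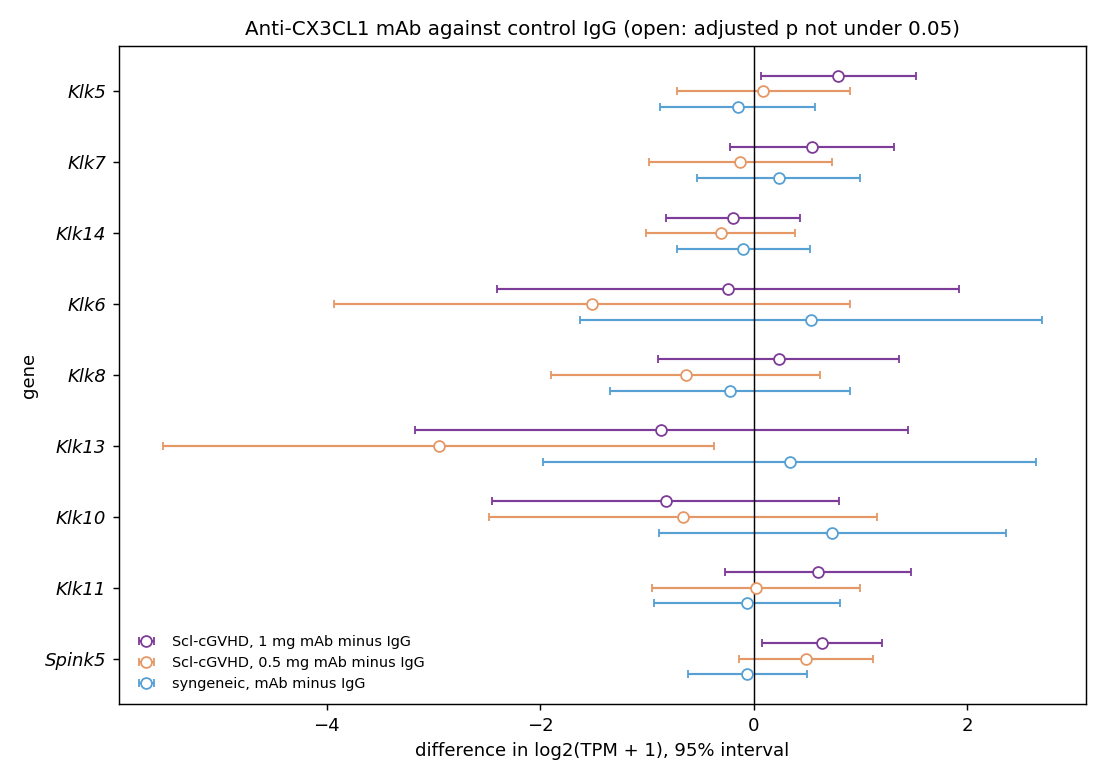
Difference in log2(TPM + 1) between mAb and IgG mice with its 95% interval for the 9 genes, in Scl-cGVHD mice at 1 mg (purple) and 0.5 mg (orange) and in syngeneic mice (blue); open points did not pass an adjusted p of 0.05. The interval of Klk13 at 0.5 mg (-5.53 to -0.37) and those of Klk5 (0.07 to 1.52) and Spink5 (0.08 to 1.21) at 1 mg leave out 0, and the others include it.

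Spink5 was 0.64 higher at 1 mg (95% interval 0.08 to 1.21, limma adjusted p = 0.423) and 0.49 higher at 0.5 mg (-0.13 to 1.12, limma adjusted p = 0.477). The 8 mice given mAb held 160.3 to 247 TPM, against 88.6, 127 and 178 TPM in the IgG mice, so that ID_1535 lay inside the mAb range and the other IgG mice below it. Klk5 was 0.79 higher at 1 mg (limma adjusted p = 0.433), and passed the test only without ID_1535 (1.31, adjusted p = 0.0268), a setting in which the calls over all genes went from 0 to 338 higher (2.07%) and 329 lower. That mouse had 318 TPM of Klk5, within the 183 to 328 TPM of the 1 mg mice, whereas the other IgG mice lay below them.

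Klk6 and Klk13, the genes with the largest rise in disease, were not called at 1 mg, with differences of -0.24 (95% interval -2.41 to 1.92) and -0.86 (-3.18 to 1.45). Of the 5 mice given 1 mg, 3 lay below the lowest IgG mouse for Klk6 (161, 356 and 545 against 547 TPM) and 3 for Klk13 (14.8, 23.9 and 49.8 against 76.6 TPM), and the others lay above the highest IgG mouse. At 0.5 mg they were -1.51 for Klk6 (-3.93 to 0.91, limma adjusted p = 0.593) and -2.95 for Klk13 (-5.53 to -0.37, limma adjusted p = 0.271). Klk13 passed the test at 0.5 mg only without ID_1539 (-4.53, adjusted p = 0.0497), where the calls over all genes went from 2 higher and 7 lower to 149 higher and 77 lower. Without ID_1540 the difference for Klk6 was 0.03. Klk10 was -0.82 at 1 mg and -0.66 at 0.5 mg, with adjusted p values of 0.814 and 0.793 from limma.

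Between the doses, limma called 0 of the 9 genes and 0% of all tested genes (0 of the 9 and 865 of all genes at an unadjusted p under 0.05). Klk13 had the widest gap, 2.09 higher at 1 mg (95% interval -0.22 to 4.40, limma adjusted p = 0.949). In syngeneic skin the mAb likewise gave 0 calls among the 9 genes and 0% of all genes (0 of the 9 and 115 of all genes at an unadjusted p under 0.05), with differences from -0.22 (Klk8) to 0.74 (Klk10). The response to mAb in syngeneic mice was then subtracted from the response to 1 mg mAb in Scl-cGVHD mice. The labels do not give the syngeneic dose, so a difference by dose and one by disease cannot be told apart here. This contrast gave 0 calls in limma over the 9 genes and 0% of all genes (0 of the 9 and 582 of all genes at an unadjusted p under 0.05). Klk10 was at -1.56 (95% interval -3.87 to 0.74) and Klk5 at 0.94 (-0.08 to 1.97) in that contrast.

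The 8 kallikreins were then summed per mouse as transcripts, a description without a test. The sum was 506 ± 86.8 TPM (SD, n = 3) in syngeneic IgG, 597 ± 158 (n = 5) in syngeneic mAb, 1755 ± 222 (n = 3) in Scl-cGVHD IgG, 459, 1025 and 3351 in the mice at 0.5 mg and 2127 ± 1041 (n = 5) at 1 mg. The make-up of the sum changed as well. Klk6 made up 4.69% ± 2.23 of it in syngeneic IgG and 34.3% ± 5.44 in Scl-cGVHD IgG skin, while Klk5 made up 28% ± 4.18 and 9.89% ± 5.74. Klk8 held about the same share, 13.3% ± 1.31 and 13.3% ± 2.38, and Klk7 was 34.8% ± 2.94 and 23.9% ± 3.88. At 1 mg, Klk7 (31.8% ± 6.23) and Klk6 (26.9% ± 7.29) led and overlapped, and Klk10 was 4.60% ± 3.34, against 18.1% ± 5.61 in syngeneic mAb mice.

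Spink5 was not called, and the ratio of summed kallikrein to Spink5 TPM was higher in disease. It was 2.59, 4.09 and 3.41 in syngeneic IgG mice and 10.9, 17.0 and 14.3 in Scl-cGVHD IgG mice. These groups did not overlap. In syngeneic mAb mice it was 2.27, 2.31, 2.96, 6.86 and 9.52, and the last 2 values belong to ID_1533 and ID_1534, which had both more kallikrein transcript and the lowest Spink5 of the syngeneic mice. At 1 mg the ratio was 6.56, 4.79, 12.95, 9.92 and 21.7 and at 0.5 mg it was 18.2, 2.40 and 6.39. The mAb mice thus spread over the values of both IgG groups. A ratio of transcripts is not a ratio of active enzyme to inhibitor, which was not measured here.

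**Figure D4:**
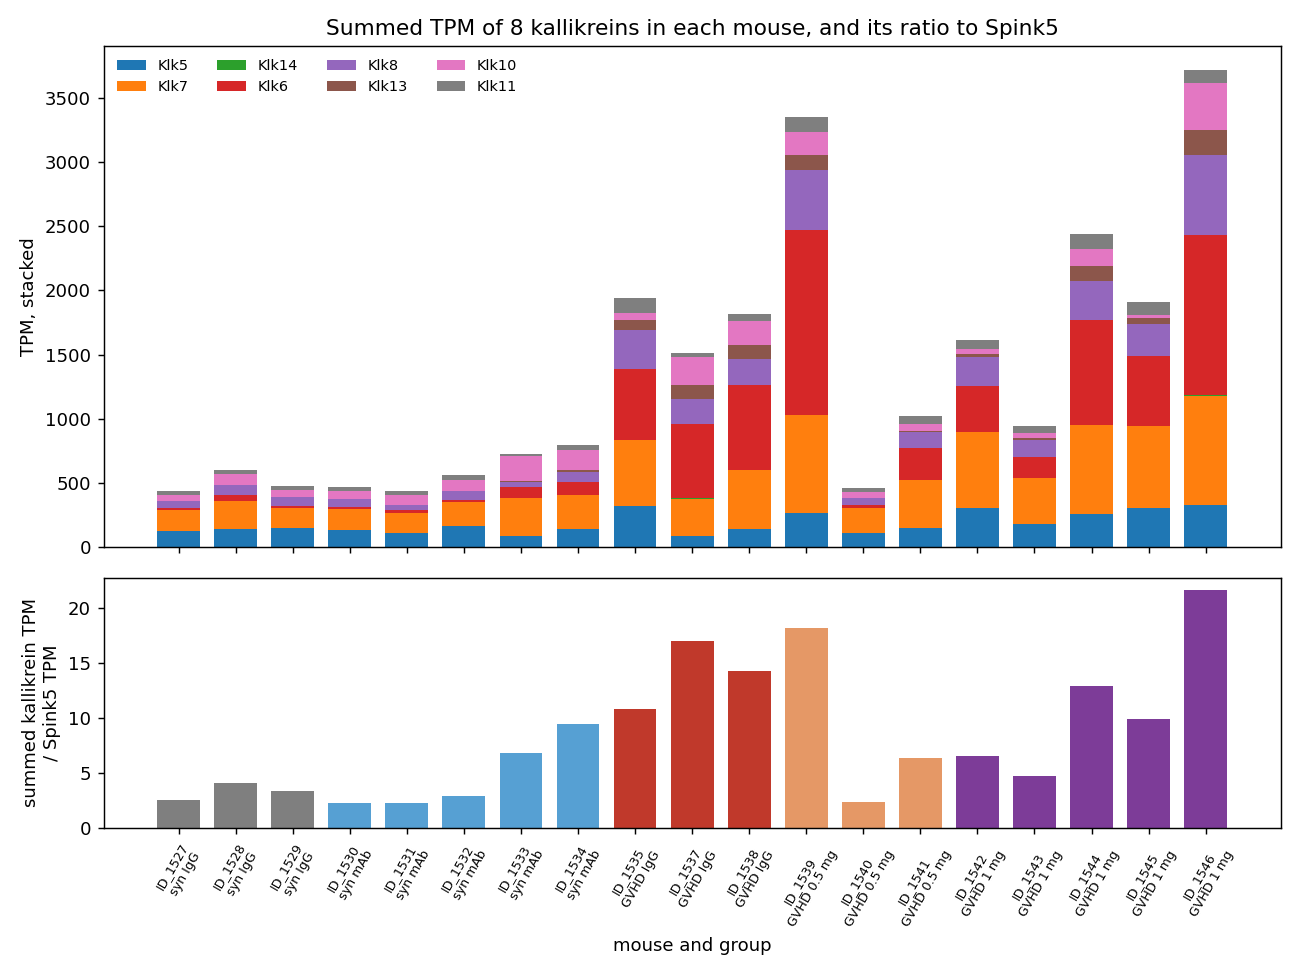
Stacked TPM of the 8 kallikreins for each mouse (upper bars, axis from 0) and the ratio of their sum to Spink5 TPM (lower bars), with mice ordered by group. The sum runs from 438 TPM (ID_1531) to 3719 TPM (ID_1546), and Klk6 (red) takes a far larger part of it in Scl-cGVHD IgG mice than in syngeneic IgG mice.

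Among the 11 Scl-cGVHD mice the levels differed mouse by mouse. ID_1546 (1 mg) had the highest level of 6 of the 8 kallikreins among diseased mice and exceeded every syngeneic mouse in all 8. ID_1540 had the lowest level of 4 of the 8. ID_1537 had the lowest Klk5 (83.7 TPM) and Klk11 (27.2 TPM) of the 11 and the lowest Spink5 (88.6 TPM), while its Klk6 (584 TPM) and Klk13 (112 TPM) were above the median of the 11. Klk5, Klk11 and Spink5 were thus below the range of syngeneic IgG mice in a mouse where Klk6 and Klk13 were high. Among the 8 syngeneic mice ID_1533 and ID_1534 also stood apart. Klk6 was 87.9 and 98.6 TPM in them, against 14.2 to 43.9 in the other 6, and Klk10 was 193 and 161 TPM, against 47.9 to 86.4. Klk13 (11.8 and 8.75 TPM, against 0.41 to 5.54) and Klk7 (293 and 269 TPM, against 149 to 217) were also the highest there, and Spink5 was 106 and 83.3 TPM, against 139 to 205. The other genes separated these mice from each other. Klk5 (87.7 TPM, against 114 to 167), Klk8 (34.7 TPM, against 44.2 to 75.7) and Klk11 (20.3 TPM, against 30.9 to 36.6) were below the other 6 in ID_1533. In ID_1534 Klk5 (138 TPM) and Klk11 (34.6 TPM) lay inside that range, and Klk8 (81.7 TPM) lay above it.

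**Figure D5:**
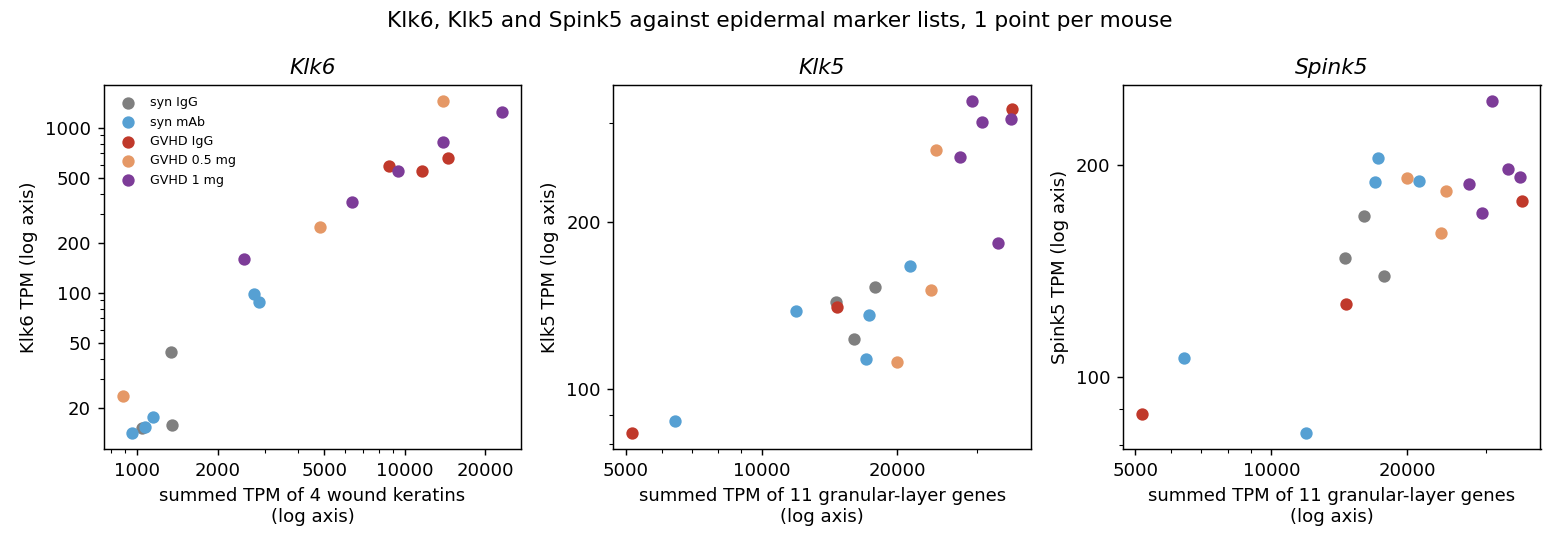
Klk6 against the summed TPM of 4 wound keratins, and Klk5 and Spink5 against that of 11 granular-layer genes, each on log axes with 1 point per mouse coloured by group. Klk6 runs from 23.8 TPM in ID_1540 (881 TPM of wound keratins) to 1445 TPM in ID_1539 (13946 TPM) among Scl-cGVHD mice, and Klk5 and Spink5 are low in ID_1537, which has 5169 TPM of granular-layer transcript.

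Other epidermal transcripts also moved. The wound keratins Krt6a, Krt6b, Krt16 and Krt17, which appear when epidermis is injured or thickened, summed to 1040 to 1343 TPM in syngeneic IgG and 8704 to 14497 TPM in Scl-cGVHD IgG mice, and 3 of the 4 were called higher (Krt6b by 7.97, Krt16 by 7.35 and Krt6a by 4.52 on the log2 scale, with limma adjusted p from 0.00156 to 0.00575). In ID_1533 and ID_1534 the 4 wound keratins summed to 2852 and 2735 TPM, the highest of the syngeneic mice, and in ID_1540 to 881 TPM. Among syngeneic mAb mice Krt17 reached 2327 TPM, but Krt6a only 435, Krt16 64.1 and Krt6b 35.1 TPM. The sums of ID_1533 and ID_1534 were thus mostly Krt17 as well. Krt6a and Krt6b are near-identical, so their split is uncertain. The 11 granular-layer genes summed to 14604 to 17825 TPM in syngeneic IgG and 5169 to 35886 TPM in Scl-cGVHD IgG mice. Of these, 1 was called higher (Tgm1, the transglutaminase of the cornified envelope, by 1.38) and 1 lower (Calm5, which fell by 2.28). Of all tested genes 6.84% were higher and 17.9% lower, so the share higher was near that of all genes and the share lower below it. At 1 mg the granular sum was 27513 to 35668 TPM, above all syngeneic mice (6412 to 21288 TPM). The part of these transcripts in the kallikrein levels was not tested beyond the covariate fit.

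Other cell types also moved in the IgG comparison, where limma called 6.84% of all tested genes higher and 17.9% lower. Leukocyte genes were called higher for 5 of 8, led by Lyz2, and their sum was 772 to 893 TPM in syngeneic IgG and 3397 to 38348 TPM in Scl-cGVHD IgG mice. All 8 differences were above 0 but unequal. Mean TPM went from 27.4 to 5371 for S100a8 and from 32.6 to 7250 for S100a9. It went only from 16.6 to 33.0 for Ptprc and from 19.4 to 29.2 for Adgre1, so the sum overstates the change of these genes. Fibroblast genes were lower for 5 of 6 (6404 to 10369 against 235 to 2472 TPM) and sebaceous gland genes for 6 of 7 (1185 to 1678 against 33.0 to 527 TPM). Skeletal muscle genes were lower for 3 of 8 (17600 to 28855 against 5164 to 11312 TPM). Of 14 hair follicle keratins 0 were called. For 12 of them the groups did not overlap and Scl-cGVHD IgG was below, a pattern not counted over all tested genes. The summed level was 74.2 to 2861 TPM in syngeneic IgG and 1.92 to 3.60 TPM in Scl-cGVHD IgG mice, and Krt72 and Krt33b were at 0 in 14 of the 19 mice. The part of this shift in the kallikrein values was not tested.

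Other proteases of the epidermis were counted as a list. Of 13 transmembrane, aspartic and cysteine and other proteases 10 were tested, and 1 was higher and 0 lower in Scl-cGVHD IgG skin (median difference 0.40), a share higher near the 6.84% of all tested genes. It was Asprv1, the aspartic protease SASPase that processes profilaggrin, which had 618 ± 38.1 TPM (n = 3) in syngeneic IgG and 2030 ± 1478 TPM (n = 3) in Scl-cGVHD IgG mice (difference 1.45, limma adjusted p = 0.0285). St14 and Prss8, matriptase and prostasin, which act upstream of the kallikreins in mouse epidermis, were not called at -0.45 and -0.21. These 2 were named after their values were seen.

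Of 15 other protease inhibitors tested, 6 were higher and 2 lower in Scl-cGVHD IgG skin, with a median of 0.26, where 6.84% of all tested genes were higher and 17.9% lower. Serpinb3a, a mouse relative of human squamous cell carcinoma antigen, had 0.173 ± 0.231 TPM (n = 3) in syngeneic IgG and 48.6 ± 19.3 TPM (n = 3) in Scl-cGVHD IgG mice (difference 5.33, limma adjusted p = 0.00169). It has close copies, so its reads may be shared with them. Serpinb12 rose by 3.36 (adjusted p = 0.00315) and Serpinb2, plasminogen activator inhibitor 2, by 2.27 (adjusted p = 0.00159), both from limma. The other inhibitors called higher were Wfdc12, Slpi and Serpinb3b, and those called lower were Spink6 and Serpinb7, all named after their values were seen. Spink5 itself had a difference of -0.26.

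Among known kallikrein substrates, 2 of 10 tested were higher and 2 lower, with a median of 0.78, where 6.84% of all tested genes were higher and 17.9% lower, so the share lower was near that of all genes. Flg2, a filaggrin family protein, had 669 ± 26.9 TPM (n = 3) in syngeneic IgG and 190.1 ± 220 TPM (n = 3) in Scl-cGVHD IgG mice and fell by 3.14 (limma adjusted p = 0.0355). Dsg1a, a desmoglein of the shed layers, fell by 1.82 (limma adjusted p = 0.0344), while its near-identical copy Dsg1b rose by 1.30 (limma adjusted p = 0.0356), and their reads may be split with error. At 1 mg, limma called 0 of these 10 against IgG, with Flg2 at 532 ± 299 TPM (n = 5) and Dsg1a at 209.7 ± 102 TPM (n = 5).

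For each of the 9 genes, the 3 genes of most similar pattern were found by Pearson r of log2(TPM + 1) over the 19 mice, among tested genes averaging 5 TPM or more. All r values rest on the same 19 libraries and on the difference between the models, so r within the 11 Scl-cGVHD and the 8 syngeneic mice is given beside them, as a description. Klk5 was nearest to late envelope genes, Lce1a2 (0.95, within models 0.95 and 0.90), Lce1a1 and Lce1c, and Klk11 likewise to Lce1e (0.98, within models 0.98 and 0.85), Lce1f and Nccrp1. Klk7 was nearest to Blmh (0.97, within models 0.95 and 0.94), Nkpd1 and Flg. Klk6 was nearest to Chil1 (0.98, within models 0.95 and 0.99), Tuba1c and Fxyd4, and Klk13 to Fabp5 (0.97, within models 0.96 and 0.88), Fxyd4 and Klk6 itself. Klk8 was nearest to Teddm3 (0.98, within models 0.97 and 0.93), then its neighbour Klk9 (0.97, within models 0.97 and 0.88) and Rnh1. Klk10 had a looser match in Dsc2 (0.86, within models 0.87 and 0.87), S100a6 and Qsox1. Spink5 was nearest to Gm9696 (0.90, within models 0.90 and 0.92), Gramd1c and Abca12, and within models Abca12, a lipid transporter of the granular layer, reached 0.97 and 0.98. Klk14 was nearest to Tomm6 (0.86, within models 0.87 and 0.79), Sec63 and Ctsd. None of the 3 genes nearest to Spink5 was a kallikrein, and the same held for Klk5, Klk6, Klk7, Klk10, Klk11 and Klk14.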

How the data were processed

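The authors made stranded mRNA libraries of skin and read both ends over 100 bases. FastQC and Trimmomatic served quality control and trimming, STAR 2.5.2b the alignment to GRCm38, and RSEM 1.2.31 the quantification against Ensembl 88. The deposited values are TPM with 2 decimals, scaled to the same total per mouse, so abundant transcripts lower all others and depth per mouse is unknown. An alignment summary that names libraries by group and not by mouse was not used here.

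Here log2(TPM + 1) was fitted with limma 3.58.1 (R 4.3.3; variance trend, robust prior) for the 16350 genes that reached 1 TPM in 3 mice or more, all 5 groups in one fit, with 8 comparisons, two-sided p values and Benjamini-Hochberg adjustment within each comparison. Errors are the spread between mice. Symbols shared by several gene IDs (119 repeats in the table) were taken at the ID with the highest mean. Named genes are all 9 genes, up to 3 per other list with the smallest p in the IgG comparison, and the 3 nearest patterns per gene; exceptions are stated. The 9 genes and the lists were chosen with earlier results of these data known. The fit was tested on simulated data. Promoter sequences are RefSeq's on GRCm38. Alternatives were 3 other scalings, a pseudocount of 0.1, no filter or 5 TPM, the compared groups alone, the pan-epidermal level as covariate, each mouse left out, and ID_1533 and ID_1534 left out.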

Additional observations from a re-analysis of the deposited data

How the results depend on the processing

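Over 8 comparisons and 9 genes, 1268 values were recomputed under alternatives, and 0 called values changed sign; 23 lost and 11 gained a call, and 56 uncalled values changed sign. Of the counts, that of genes higher in Scl-cGVHD IgG against syngeneic IgG mice was 4, and 2 with no filter (28596 genes then tested), 0 with the pan-epidermal covariate, and 2 to 4 with a mouse left out. For 1 mg against syngeneic mAb mice it was 6, 0 with the covariate, and 7 where TPM was rescaled by median-ratio or by trimmed-mean factors. For 0.5 mg against syngeneic mAb mice it was 0, 1 without ID_1533 and ID_1534 and 0 to 5 with a mouse left out. For 1 mg and 0.5 mg against Scl-cGVHD IgG mice, leaving out a mouse gave 0 to 1 gene higher and 0 to 1 lower, and in the settings with 1 the calls over all genes were 338 higher and 329 lower (main 0 and 0) and 149 higher and 77 lower (main 2 and 7). Over all genes, median-ratio factors gave 40 higher and 53 lower for 0.5 mg against Scl-cGVHD IgG mice, and 822 and 802 against syngeneic mAb mice (main 475 and 2143). The ratio to Spink5 without the most abundant kallikrein, Klk7, was 2.20 in syngeneic IgG (3.37 with it) and 10.8 in Scl-cGVHD IgG mice (14.1 with it). Apart from the settings named, the causes were not tested. No paired analysis was possible because the labels name mice by ID and give groups no shared replicate numbers. Depth per mouse is unknown, groups of 3 carry wide intervals, and replicates are separate mice by their IDs.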
